A study of Homo sapiens with 4 samples.

Results

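Metallothioneins were followed in U87 cells with and without knockdown of PTPRN, together with their transcription factor MTF1 and the zinc exporter SLC30A1. The 10 genes were chosen by name, 8 of them metallothioneins (MT1A, MT1E, MT1F, MT1G, MT1M, MT1X, MT2A and MT3), out of 19314 genes listed. All 10 had a value. U87 is an established human malignant glioma cell line. RNA of 4 libraries was sequenced. Of these, 2 carried the genotype label PTPRN knockdown and are called PTP2 after their titles, and 2 carried the label SCR, the scrambled control. The study made its knockdown with short hairpin RNAs in the vector pLKO.1 and describes a control vector with an unmatched sequence. The labels do not state which of the study's hairpins PTP2 is, and they give no time after transfection. U87 is the cell line in the labels, but their growth protocol describes hCMEC/D3, which is a line of brain endothelium. Nothing states that the replicates came from separate cultures, so the p-values measure the spread between these libraries, which may be technical. In bulk RNA, fewer cells with a transcript and less transcript per cell cannot be told apart.

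Metallothioneins are small cytosolic proteins very rich in cysteine, which bind zinc and copper and take up toxic metals such as cadmium. Their genes form a cluster on chromosome 16 and are switched on by metals through MTF1, a zinc finger protein that senses free zinc and binds metal response elements in their promoters. Glucocorticoids, oxidants and inflammatory cytokines also induce them. MT2A and several MT1 genes are expressed in many tissues, while MT3 is best known from the brain, where it was described as a growth inhibitory factor. SLC30A1 carries zinc out of the cell across the plasma membrane and is another known target of MTF1.

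The genes of the family resemble each other so closely that their sequences matter for reading the values. In the deposited table the 8 metallothionein genes lay within 94842 bases, at chr16:56589355-56684196 (GRCh38), in the order MT3, MT2A, MT1E, MT1M, MT1A, MT1F, MT1G and MT1X. All were on the plus strand except MT1G. MTF1 (chr1:37809567-37859620) and SLC30A1 (chr1:211575039-211578757) were both on the minus strand of chromosome 1. In the GENCODE 29 annotation of GRCh38 the coding sequences of MT2A, MT1X, MT1E and MT1F each had 186 bases, with 61 codons before the stop codon, of which 20 encode cysteine. They are shown because these are the 4 most abundant metallothioneins and did not move alike. Capitals mark the bases that differ from MT2A at the same position.
MT2A (MT2A-201, exons within chr16:56608656-56609354, plus strand): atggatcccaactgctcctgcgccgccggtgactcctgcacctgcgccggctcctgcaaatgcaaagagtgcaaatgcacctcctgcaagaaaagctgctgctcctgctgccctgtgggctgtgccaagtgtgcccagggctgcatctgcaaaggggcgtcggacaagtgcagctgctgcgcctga
MT1X (MT1X-201, within chr16:56682541-56684049, plus strand): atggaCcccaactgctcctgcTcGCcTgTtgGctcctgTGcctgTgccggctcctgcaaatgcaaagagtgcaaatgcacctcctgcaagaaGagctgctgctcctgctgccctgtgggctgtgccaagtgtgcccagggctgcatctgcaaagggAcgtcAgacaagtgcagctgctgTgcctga
MT1E (MT1E-201, within chr16:56625852-56626971, plus strand): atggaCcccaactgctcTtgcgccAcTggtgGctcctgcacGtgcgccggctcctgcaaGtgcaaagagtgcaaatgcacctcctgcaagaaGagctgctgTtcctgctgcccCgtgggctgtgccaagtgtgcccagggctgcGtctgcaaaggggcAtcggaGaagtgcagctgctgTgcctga
MT1F (MT1F-201, within chr16:56658059-56659164, plus strand): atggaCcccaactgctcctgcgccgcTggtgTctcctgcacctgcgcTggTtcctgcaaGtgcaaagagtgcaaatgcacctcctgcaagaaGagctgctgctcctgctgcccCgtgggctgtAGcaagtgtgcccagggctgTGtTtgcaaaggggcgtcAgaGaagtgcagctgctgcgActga

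MT1X and MT1E each differed from MT2A at 14 bases and MT1F at 16. Over all pairs of the 7 metallothioneins other than MT3, the identity of the coding sequences was 88.7% to 94.6%. MT3 was the most distant member, with 73.4% to 76.3% identity to the others and 68 codons before the stop. The reads had 50 bases. Of the 50-base windows of the MT2A transcript, 9.7% occurred unchanged in a transcript of another gene, and 34.6% matched another metallothionein gene or pseudogene with at most 2 mismatches. For MT1E these shares were 7.7% and 45.1%, for MT1F 5.3% and 15.7%, for MT1G 20.2% and 36.5%, for MT1M 14.1% and 49.4% and for MT1A 5.8% and 36.3%. MT3 had no exact window elsewhere. MT1X stood apart with 51.0% of its windows found unchanged in another gene. Most of these lay in AC026461.1, a transcript that overlaps MT1X on the same strand. Other family members held 18.0% of the MT1X windows unchanged, and 28.2% matched the family with at most 2 mismatches. How reads shared between genes were counted, and whether AC026461.1 was counted, is not given in the sources used here. The split of reads among these genes is therefore uncertain.

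FPKM, which scales reads by transcript length and by mapped fragments, was deposited for each gene and library. The steps between low values gave an approximate depth of 17400000 to 18800000 reads per library. The groups were compared by limma, on log2(FPKM + 1), over the 16595 genes with a value, with Benjamini-Hochberg adjustment. PTPRN itself had an FPKM of 12.1 and 11.7 in PTP2 against 84.8 and 85.0 in SCR (log2 fold change -2.74, standard error 0.03, adjusted p = 1.48e-04, limma). Of 11 endothelial markers, 0 reached an FPKM of 10 in any library. Among the astrocyte and glioma markers, AQP4 was listed at 0 in every library, and S100B and GFAP stayed below 1, while VIM, TNC and CD44 were above 100 throughout. VIM, CD44 and SLC1A3 were higher in PTP2, and TNC and NES were lower. NES had an FPKM of 3.12 and 3.39 in PTP2 and 12.96 and 14.24 in SCR. Of the myeloid markers, CD68 alone reached 10, at 357 and 340 in PTP2 and 230 and 231 in SCR. The summed epithelial markers were 4.18 and 4.15 in PTP2 and 11.1 and 10.7 in SCR. The part of these shifts in the values below was not tested.

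Of the 10 genes, MT2A and MTF1 rose in PTP2, MT1X and MT1F fell, and 6 did not pass an adjusted p of 0.05 (limma). MT1X showed the largest change of the 10, with a mean FPKM 43.6% below that of SCR, while MT2A was 17.4% above it. The count of 4 of 10 stood beside 57.9% of all genes tested at the same threshold, and the difference between these shares was not tested. The stricter rule of the study asks for a 2-fold change together with an adjusted p no higher than 0.001. By limma it called 0 of the 10 genes, beside 6.69% of all genes (2.63% higher and 4.06% lower). An unadjusted p under 0.05 (limma) was found for 5 of the 10, beside 10321 of all 16595 genes tested. The values of the groups did not overlap for 6 of the 10 genes, of which 3 were higher and 3 lower in PTP2, and for 75.6% of all genes. The median log2 fold change of the 10 genes was -0.01, and that of all genes tested was 0.01. The median absolute log2 fold change was 0.16 for the 10 genes, 0.25 for all genes tested and 0.38 where mean FPKM reached 1, as it did for all of the 10 except MT3.

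**Figure D1:**
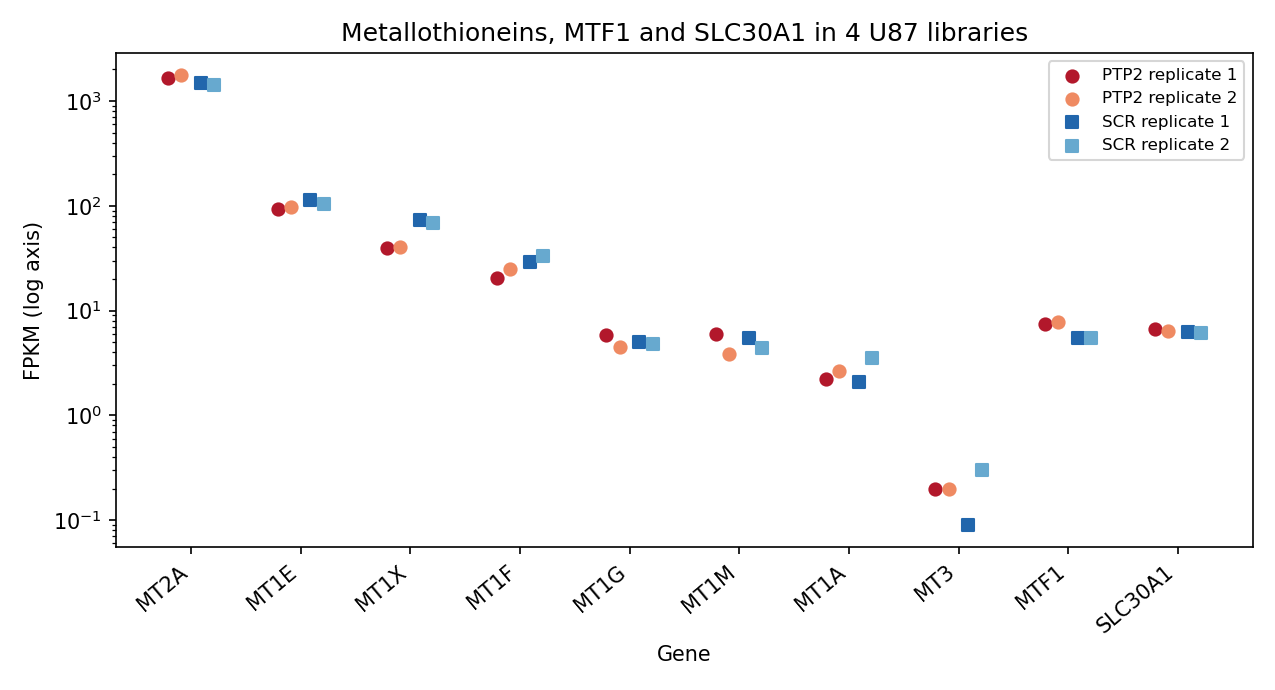
FPKM of the 10 genes in each library, on a log axis, with circles for PTP2 and squares for SCR. MT2A lies between 1423 and 1752, MT1E, MT1X and MT1F between 20.3 and 114, and MT3 at or below 0.30. The circles and squares are apart for MT2A, MT1E, MT1X, MT1F, MTF1 and, narrowly, SLC30A1.

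MT2A was by far the most abundant metallothionein. It had an FPKM of 1647 and 1752 in the PTP2 libraries and 1472 and 1423 in the SCR libraries. Both PTP2 libraries were above both SCR libraries, and MT2A ranked between 13 and 18 among all genes in each library. Its mean was 1699.6 ± 73.9 (SD, n = 2) in PTP2 and 1448 ± 34.3 (SD, n = 2) in SCR, a log2 fold change of 0.23 (standard error 0.05, 95% confidence interval 0.10 to 0.36, adjusted p = 0.0190, limma). The level corresponds to about 10377 to 12772 reads per library, so counting error is small. The size of the rise was below the median absolute change of 0.38 over the 11272 genes whose mean FPKM reached 1, and its call was not kept under every setting. With quantile normalization the log2 fold change was 0.13 (adjusted p = 0.335), and without PTP2 replicate 2, SCR replicate 1 or SCR replicate 2 it was 0.19 (0.0796), 0.26 (0.105) and 0.21 (0.139). The log2 fold change stayed above 0 under all 11 alternatives, between 0.13 and 0.28.

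The MT1 genes made up the remainder of the family. MT1E encodes one of the widely expressed MT1 isoforms and was the most abundant of them. Its FPKM was 92.2 and 97.3 in PTP2 and 114 and 104 in SCR. The groups did not overlap, but the gap between the nearest libraries was smaller than the spread between the SCR replicates. Its level corresponds to about 812 to 1086 reads per library. The log2 fold change was -0.20 (95% confidence interval -0.38 to -0.03) and missed the threshold (adjusted p = 0.0562, limma). It passed under 5 of the 11 alternatives, with the lowest adjusted p under quantile normalization (-0.30, adjusted p = 0.0183), and ranged from 0.0183 to 0.262 over all of them.

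MT1X, another MT1 isoform with the same metal binding cysteines, had an FPKM of 39.7 and 40.1 in PTP2 and 72.9 and 68.65 in SCR. The replicates lay close together in each group and the groups were far apart. The mean was 39.9 ± 0.226 (SD, n = 2) in PTP2 and 70.8 ± 3.01 (SD, n = 2) in SCR, and the log2 fold change was -0.81 (standard error 0.04, 95% confidence interval -0.93 to -0.69, adjusted p = 6.93e-04, limma). MT1X passed 0.05 under each of the 11 alternatives, where its values ranged from -0.90 to -0.77. Its level corresponds to about 279 to 554 reads per library, of which an unknown share may belong to AC026461.1 or to other family members.

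MT1F had an FPKM of 20.3 and 24.9 in PTP2 and 29.3 and 33.3 in SCR. The PTP2 libraries were both lower, with a clear spread inside each group, at about 171 to 280 reads per library. The log2 fold change was -0.46 (standard error 0.13, 95% confidence interval -0.82 to -0.10, adjusted p = 0.0436, limma), close to the threshold. With a pseudocount of 0.1 the adjusted p was 0.0696, and without each library in turn it was 0.0735 to 0.265, while the log2 fold change stayed between -0.60 and -0.32 under all 11 alternatives.

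The weakly expressed MT1 genes showed no difference beyond the spread between replicates. MT1G had an FPKM of 5.82 and 4.48 in PTP2 and 4.99 and 4.77 in SCR (log2 fold change 0.06, 95% confidence interval -0.29 to 0.40). MT1M had 5.94 and 3.84 in PTP2 and 5.41 and 4.42 in SCR (-0.02, -0.63 to 0.58). MT1A had 2.22 and 2.67 in PTP2 and 2.07 and 3.50 in SCR (-0.11, -0.73 to 0.50). For these 3 genes the groups overlapped, the adjusted p was 0.704 to 0.937 (limma), and the intervals of MT1M and MT1A still include a change as large as that of MT1F. Their levels correspond to about 15 to 46 reads per library, where the counting error alone is about 17.8% for MT1G, 18.4% for MT1M and 25.6% for MT1A at the lowest library.

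MT3, the neuronal and glial member, was close to the limit of detection. It had an FPKM of 0.20 in both PTP2 libraries and of 0.09 and 0.30 in SCR, about 1 to 3 reads per library. A difference was not detectable at this depth. MT1H was listed at 0.48 and 0.23 in PTP2 and at 0 and 0.19 in SCR, and MT1B at 0.07 in PTP2 replicate 1 and at 0 in the other libraries, so both were at about 3 reads or fewer. Neither passed an adjusted p of 0.05, and 0 of these 2 genes had an unadjusted p under 0.05 (limma). MT4 and MT1HL1 were listed without a value.

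**Figure D2:**
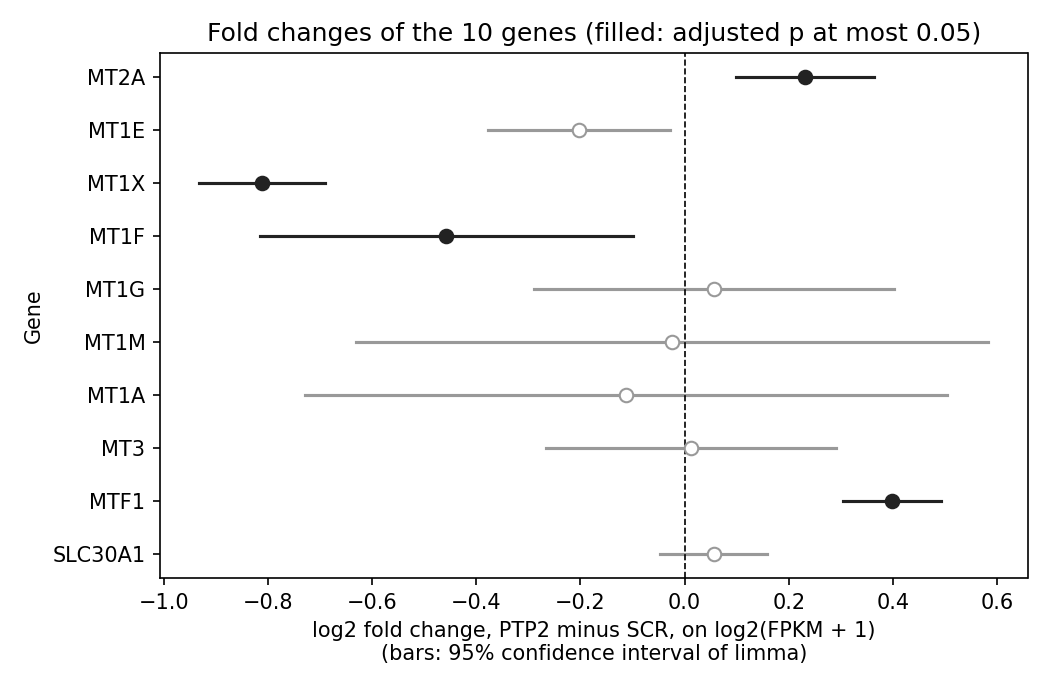
Log2 fold change of each gene, PTP2 minus SCR on log2(FPKM + 1), with bars for the unadjusted 95% confidence interval of limma. Filled points mark the 4 genes at an adjusted p of at most 0.05. MT1X at -0.81 and MT1F at -0.46 lie left of 0, and MT2A at 0.23 and MTF1 at 0.40 lie right of it.

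Since FPKM is scaled by length, the levels of the genes can be added up within a library. The 8 metallothioneins summed to an FPKM of 1814 and 1925 in PTP2 and 1701 and 1643 in SCR, a ratio of group means of 1.12, or 1.08 after median-ratio scaling. The sum followed MT2A, which held 90.8% and 91.0% of it in PTP2 and 86.5% and 86.65% in SCR. Without MT2A the sum was 166 and 173 in PTP2 and 229 and 219 in SCR, a ratio of 0.758. The family total and the MT1 total thus lay on opposite sides of the control level. MT1X accounted for 2.19% and 2.08% of the family total in PTP2 and 4.29% and 4.18% in SCR. Ratios between genes of the same library do not depend on the scaling of libraries. MT2A was 41.5 and 43.7 times as abundant as MT1X in PTP2 and 20.2 and 20.7 times in SCR. The ratio of MT1X to MT1E was 0.431 and 0.412 in PTP2 and 0.639 and 0.658 in SCR. These sums and shares are descriptions and were not tested. Sorted by mean level, the order was MT2A, MT1E, MT1X, MT1F, then MT1G, MT1M and MT1A, and last MT3. The values of MT1G and MT1M overlapped, so the order of these neighbours is not fixed, while MT2A, MT1E, MT1X and MT1F kept their order in each library.

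**Figure D3:**
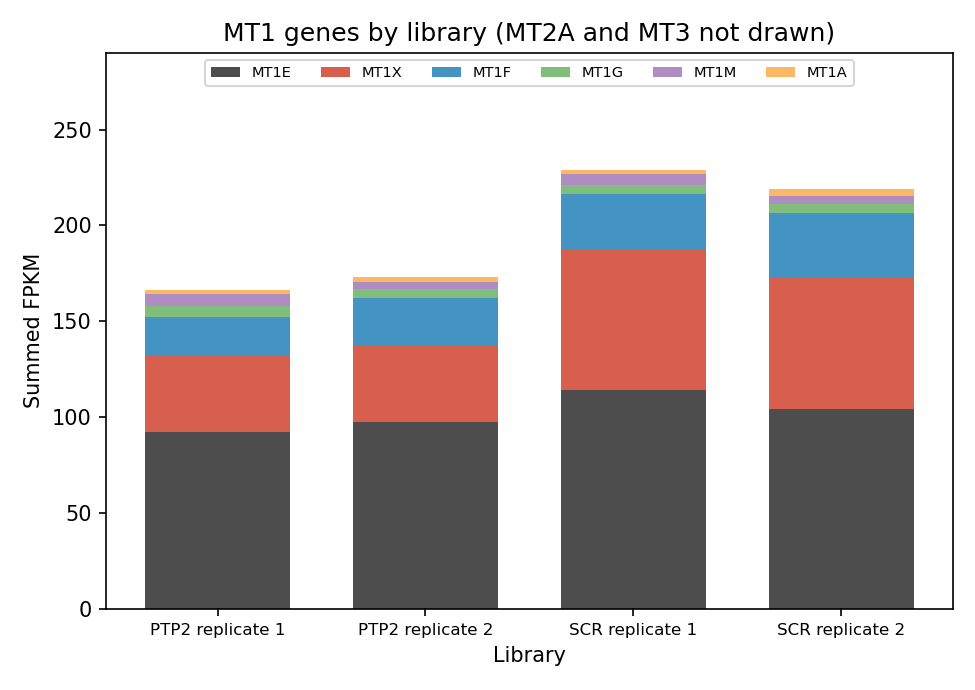
Summed FPKM of the 6 MT1 genes in each library, as stacked bars. The MT1X segment is 39.7 and 40.1 in the PTP2 libraries and 72.9 and 68.65 in the SCR libraries, and the MT1E segment is the largest in each bar.

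MTF1, the zinc-sensing activator of the metallothionein genes, was higher in PTP2. Its FPKM was 7.42 and 7.70 in PTP2 and 5.49 and 5.50 in SCR. The replicates were nearly equal in each group and the groups did not overlap. The log2 fold change was 0.40 (standard error 0.03, 95% confidence interval 0.30 to 0.49, adjusted p = 0.00179, limma), and MTF1 passed 0.05 under all 11 alternatives, with values from 0.36 to 0.45. SLC30A1, the zinc exporter, had an FPKM of 6.62 and 6.31 in PTP2 and 6.22 and 6.14 in SCR. The groups were separated by a gap smaller than the spread between the PTP2 replicates. Its log2 fold change was 0.06 (95% confidence interval -0.05 to 0.16, adjusted p = 0.273, limma), so a change as large as that of MTF1 lies outside the interval.

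Promoter sequences from RefSeq (GRCh38.p14, 250 bases before to 50 bases after the start of the gene) were matched for 4 of the 10 genes, MT2A, MT1X, MTF1 and SLC30A1. They were searched on both strands for the metal response element core, spelled TGCACNC or TGCGCNC. Matches on opposite strands may overlap, but none of those counted here did. MT2A had 8 cores, MT1X had 4, SLC30A1 had 2 and MTF1 had none. Of 35116 promoters of the same length, 29.6% held at least 1 core, 8.6% at least 2, 0.601% at least 4 and 0.0199% at least 8. The cores nearest upstream of the TATA box in the gene pair that moved in opposite directions are shown in capitals on the plus strand of the chromosome, and GRCh38.p14 is the build.
MT2A at chr16:56608522-56608544: ggggctttTGCACTCgtcccggc
MT2A at chr16:56608488-56608510: cgcggggcGTGTGCAggcagcgc
MT1X at chr16:56682409-56682431: ggggcctcTGCGCCCggccctct
MT1X at chr16:56682384-56682406: gcaggggcGGGTGCAaggacgag

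The core of the first MT2A site starts 54 bases before the start of the gene, and that of the first MT1X site 53 bases before it. In the second site of each gene the core is on the opposite strand. Both promoters held 1 TATA box (TATAAA, in 11.5% of all promoters), and MT2A, MT1X and SLC30A1 each held 1 antioxidant response element (TGACNNNGC, in 13.3%). Whether these matches had a part in the changes of MT2A and MT1X was not tested. A match describes the letters only and is not a binding site.

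Genes that flank the cluster were called in both directions. Of 11 neighbours on chromosome 16, 3 rose, 4 fell and 4 did not pass the test, beside 30.8% higher and 27.1% lower among all genes. Some of those that did not pass were at an FPKM of 0.10 or less in every library, too low to show a change. OGFOD1, a hydroxylase of a ribosomal protein, had an FPKM of 34.5 in both PTP2 libraries and 26.3 and 25.6 in SCR (log2 fold change 0.40, adjusted p = 0.00157, limma). NUDT21, a cleavage factor of messenger RNA 3' end processing, rose by 0.22. HERPUD1, a component of endoplasmic reticulum-associated degradation, fell from 49.6 to 35.8 in mean FPKM (-0.46, adjusted p = 0.00495).

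Zinc carriers of the ZIP family, which bring zinc into the cytosol, were mostly lower. Of 14 measured, 8 fell, 0 rose and 6 did not pass, with a median log2 fold change of -0.26, where 27.1% of all genes were lower. Of the 6 importers that did not pass, 3 stayed below an FPKM of 1 throughout. SLC39A7, which releases zinc from the endoplasmic reticulum, had an FPKM of 74.7 and 73.9 in PTP2 and 145 and 148 in SCR. Its values fell by 0.97 on the log2 scale (adjusted p = 3.48e-04, limma), the PTP2 libraries being far below the controls. SLC39A1, a carrier of the plasma membrane, fell by 0.40 and SLC39A13, a carrier of the secretory pathway, by 0.26. SLC39A14, which also takes up iron and manganese, had 88.8 and 88.9 in PTP2 and 83.9 and 84.2 in SCR (0.08, adjusted p = 0.0829). SLC39A4, the intestinal zinc carrier, was named after its values were seen. It had 6.79 and 6.56 in PTP2 and 16.8 and 13.1 in SCR (log2 fold change -1.05, adjusted p = 0.00471). The count of 8 was 4 without PTP2 replicate 1 and 4 without PTP2 replicate 2, settings under which the share of all genes called was also lower, at 40.2% and 40.3%.

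Genes listed as zinc exporters were called in both directions. Of 9 tested besides SLC30A1, which were 8 members of the SLC30 family and TMEM163, 2 rose, 1 fell and 6 did not pass, beside 30.8% higher and 27.1% lower among all genes. Of the 6 that did not pass, 4 stayed below an FPKM of 1 in every library. SLC30A7, which loads zinc into the secretory pathway, had an FPKM of 11.4 and 12.01 in PTP2 and 5.48 and 5.57 in SCR (log2 fold change 0.96, adjusted p = 4.85e-04, limma). The 1 that fell was SLC30A9, which exports zinc from mitochondria rather than from the cytosol (-0.23, adjusted p = 0.0111, limma). SLC30A5 and SLC30A6, which act as a pair in the secretory pathway, had log2 fold changes of 0.10 (adjusted p = 0.0947) and 0.05 (adjusted p = 0.291). The count of genes called was 3 and became 1 without PTP2 replicate 1 and 1 without PTP2 replicate 2, where 40.2% and 40.3% of all genes were called.

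Metallothioneins also bind copper, and 11 of 13 genes of copper handling passed the test, 7 higher and 4 lower. Among all genes 57.9% passed, 30.8% higher and 27.1% lower. Where an FPKM of at least 1 was required in 2 libraries, 10 copper genes passed, beside 78.8% of all genes kept. ATOX1, the chaperone that hands copper to the secretory pathway, had an FPKM of 159 and 162 in PTP2 and 98.3 and 92.2 in SCR (log2 fold change 0.74, adjusted p = 8.96e-04, limma). COX17 and COX11, which serve copper to cytochrome oxidase, rose by 0.56 and 0.33, and the copper enzyme SOD1 rose by 0.42. These were named as the highest expressed of the list by mean FPKM over the 4 libraries. By that measure the 4 genes that fell were all lower. In SCR alone, COMMD1, which fell, had a mean FPKM of 23.7 and COX11 one of 23.4. The count of 11 was 7 with a pseudocount of 0.1, where 55.3% of all genes were called. It was 7 without either PTP2 replicate and 3 without either SCR replicate, where the share of all genes was 39.9% to 40.3%.

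Other genes that answer metals, oxidants or glucocorticoids were also called in both directions. In the list of metal and redox stress, 4 of 12 rose and 4 fell, shares near the 30.8% higher and 27.1% lower among all genes. Among them was TXNRD1, a thioredoxin reductase, which rose from 61.9 to 196 in mean FPKM (log2 fold change 1.65, adjusted p = 2.43e-04, limma). HSPA1B, an inducible heat shock protein, fell by 0.92 and NQO1, a quinone reductase, by 0.45, while the value of DNAJB1 was -0.02 (adjusted p = 0.604). HSPA1B has a near-identical copy, HSPA1A, so the split of their reads is uncertain. In the list of glucocorticoid response, 3 of 8 tested genes rose and 3 fell, beside the same background. TSC22D3, known as GILZ, fell from 22.3 to 7.70 in mean FPKM (-1.42, adjusted p = 5.65e-04), and the kinase SGK1 fell by 1.07. ERRFI1, a feedback inhibitor of EGF receptor, rose by 1.64 and the phosphatase DUSP1 by 0.67.

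**Figure D4:**
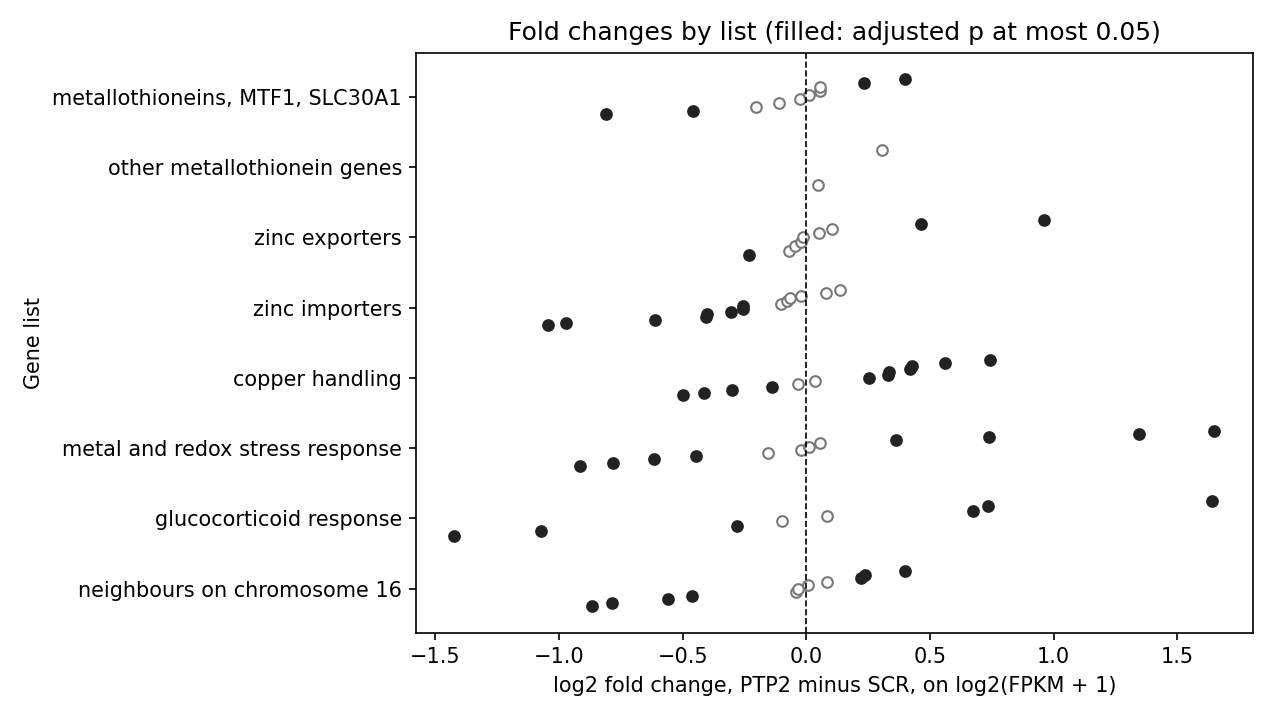
Log2 fold change, PTP2 minus SCR on log2(FPKM + 1), of each tested gene of each list, with filled points at an adjusted p of at most 0.05 (limma). The zinc importers have 8 filled points, all left of 0, and the other lists with called genes have filled points on both sides.

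Among the 6253 genes outside the family with a mean FPKM of at least 10, those nearest to MT2A in their centred log2 values over the 4 libraries were PYM1, SLX1A and SLX1B. The distances were 0.0076, 0.0175 and 0.0175. PYM1 had an FPKM of 29.1 and 31.1 in PTP2 and 25.9 and 25.2 in SCR. SLX1A and SLX1B were listed with equal values in each library. With 4 libraries this likeness describes little more than a similar difference between groups. In the deposited annotation, 7 of the 8 metallothioneins shared the KEGG entry K14739, MT3 being the exception, and 8 of the 10 genes were assigned to Mineral absorption, all except MT3 and MTF1.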

How the data were processed

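The authors deposited FPKM values for 4 libraries, 2 of each group, in 2 tables that held equal values wherever they could be compared (66380 values). Single-end reads of 50 bases were made on a BGISEQ-500. The submitters' processing notes name HISAT2 (2.1.0) and hg19. Gene positions in the table lie on GRCh38, since 97.2% of 18767 genes matched by symbol overlapped their GENCODE 29 position. The counting program is not given in the sources used here. The columns with the authors' means, fold changes and p-values were not used.

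No counts were found, so limma (3.58.1, R 4.3.3; lmFit and eBayes with default options) was applied to log2(FPKM + 1) of the 16595 genes with a value, with group as the only term. A pseudocount of 1 makes fold changes of low genes appear smaller. The limit for a call was an adjusted p of 0.05, and for a strict call a 2-fold change with 0.001. An exact permutation test of 2 against 2 libraries cannot go below 0.333. The script was tested on simulated data. Depth was estimated from single-transcript genes, where 71.5% to 72.5% of low values lay within 0.2 of a whole read. Estimated reads use the longest transcript and cover counting error only. Coding sequences were aligned with Biopython 1.88, and 50-base windows were searched in the GENCODE 29 transcripts.

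The members and lists were chosen with earlier results of these data known. Named were the 10 genes, every other metallothionein with a row, and for each other list the genes called strictly, filled up to 4 with the highest expressed, of which 1 is not reported here. As alternatives, the pseudocount was set to 0.1, an FPKM of 1 or more was required in 2 libraries, and the fit was repeated with quantile and median-ratio scaling, an eBayes trend, a replicate block and leaving out each library. A pseudocount of 0.1 with an eBayes trend was added after seeing the data. Protein sequences were not used here.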

Additional observations from a re-analysis of the deposited data

How the results depend on the processing

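MT1X, MTF1, PTPRN and SLC30A1 kept their direction and their side of 0.05 under all 11 alternatives, as did the counts for the stress, glucocorticoid and neighbour lists within 1.5 times. The labels give both groups replicates 1 and 2. The deviations of same-numbered libraries had a correlation of 0.0635, so any shared deviation was weak. That value cannot settle whether same-numbered libraries were prepared together. With the replicate block MT2A had 0.23 (adjusted p = 0.0507) and 0 genes were called strictly, against 1111. That count was also 0 with a pseudocount of 0.1 and without any single library, where an unadjusted p under 0.05 was found for 10185 genes with a pseudocount of 0.1, for 10108 with the block and for 8760 to 8889 without a library. With a pseudocount of 0.1, MT1F had -0.47 (adjusted p = 0.0696) and 7 copper genes were called. MT1E passed with the minimum FPKM (-0.20), quantile normalization (-0.30), median-ratio scaling (-0.25), the eBayes trend (-0.20) and the added trend with a pseudocount of 0.1 (-0.21). With quantile normalization MT2A had 0.13 and MT1M turned to 0.012. Leaving out each library in turn gave -0.39 to 0.16 for MT1A, -0.60 to -0.32 for MT1F, -0.10 to 0.21 for MT1G, -0.28 to 0.24 for MT1M, 0.19 to 0.28 for MT2A and -0.12 to 0.14 for MT3. The lone library of a group is then assumed to vary like the others. It also gave 2 to 3 of the 10 genes called, 1 to 2 of the 8 metallothioneins, 1 to 3 zinc exporters, 4 to 7 zinc importers and 3 to 7 copper genes, while the count over all genes fell from 9603 to between 6525 and 6589. The count for the 10 genes was 2 without PTP2 replicate 2, without SCR replicate 1 or without SCR replicate 2. MT3 had no value with the minimum FPKM. For other changes the cause was not tested. Depth limits MT3, MT1H and MT1B, and shared sequence limits the family.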
